A study of Rattus norvegicus with 45 samples.

Results

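The genes described here copy DNA and divide cells: a replication class with 22 listed genes and a mitotic class with 25. A gene entered if the array's annotation names it alone for at least 1 probe set, and each gene was read from its probe set of highest mean over the 45 arrays. That left 44 of 47 listed genes, 21 in the replication class and 23 in the mitotic class, out of 14217 genes on the array. Rrm2, which makes deoxynucleotides, and Hmgb2, a chromatin protein, sit on probe sets that the annotation assigns to several genes, and Tpx2, a spindle protein, was not found in it. These 3 are not analysed here.

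RNA came from livers of male Sprague-Dawley rats aged 10 weeks, dosed by gavage, and was measured on Affymetrix Rat Genome 230 2.0 arrays. By the sample titles there were 9 groups of 5 arrays: controls, myclobutanil at 225 mg/kg/day and triadimefon at 175 mg/kg/day, each at 6 h, 24 h and 14 days. The doses are given for the series as a whole, the vehicle of the controls is not given in the sources used here, and no other agent or allele is named. Elsewhere the labels speak of 15 liver samples and of 3 animals per treatment, so arrays are counted here, and if some share an animal the p-values measure a spread that is partly technical. Both compounds are triazole fungicides, built to block sterol demethylation in fungi.

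A liver cell that leaves rest passes through cyclin E with Cdk2 and the E2F factors into DNA synthesis, where the MCM helicase is loaded by Cdt1 and opens the double strand, and Pcna clamps the polymerases to it. Cyclins A and B with Cdk1 then drive mitosis, in which the spindle is built by motors and kinases and released by the anaphase-promoting complex. Adult liver cells are mostly at rest, and the tissue is known for re-entering the cycle after tissue loss or on exposure to some xenobiotics. A mitotic transcript can mark a dividing cell of any type, and in whole liver more cells in cycle and more RNA per such cell cannot be told apart.

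The 2 classes are known to be switched on through different promoter elements, E2F sites in replication genes and paired CHR and CCAAT elements in mitotic genes, so the promoters of 6 members whose values are described below are shown with these letters marked. RefSeq sequences of the rat build GRCr8 were read for the 250 bases before the start site, and 36 of the 44 genes were found in them (Dut with 2 promoters). The searched letters were TTTCCCGC, TTTCGCGC, TTTGCCGC and TTTGGCGC for E2F-type, TTTGAA for CHR-type, and CCAAT, each on both strands. Capitals mark every match, and where matches share bases they run together, as in Mcm6, Mcm7 and Mki67. The helicase subunits Mcm6 at chr13:42404353-42404602 (minus strand) and Mcm7 at chr12:22163179-22163428 (minus strand) and the clamp Pcna at chr3:139955821-139956070 (minus strand) stand for replication. The mitotic kinase Cdk1 at chr20:19265043-19265292 (plus strand), the topoisomerase Top2a at chr10:84473094-84473343 (minus strand) and the proliferation marker Mki67 at chr1:199952594-199952843 (minus strand) stand for mitosis.
Mcm6: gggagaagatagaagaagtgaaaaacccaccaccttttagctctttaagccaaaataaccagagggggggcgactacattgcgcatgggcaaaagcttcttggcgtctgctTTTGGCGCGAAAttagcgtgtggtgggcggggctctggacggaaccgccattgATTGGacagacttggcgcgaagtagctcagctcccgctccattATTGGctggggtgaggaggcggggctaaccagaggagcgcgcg
Mcm7: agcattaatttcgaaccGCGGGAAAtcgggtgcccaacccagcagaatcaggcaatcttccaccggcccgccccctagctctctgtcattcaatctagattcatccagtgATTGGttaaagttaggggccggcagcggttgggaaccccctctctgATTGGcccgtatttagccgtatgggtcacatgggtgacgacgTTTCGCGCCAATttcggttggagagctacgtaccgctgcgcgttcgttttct
Pcna: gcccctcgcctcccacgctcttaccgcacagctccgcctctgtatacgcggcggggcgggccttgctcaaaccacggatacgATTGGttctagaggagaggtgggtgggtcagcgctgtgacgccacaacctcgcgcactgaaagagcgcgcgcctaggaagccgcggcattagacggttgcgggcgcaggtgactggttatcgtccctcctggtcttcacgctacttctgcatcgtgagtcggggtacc
Cdk1: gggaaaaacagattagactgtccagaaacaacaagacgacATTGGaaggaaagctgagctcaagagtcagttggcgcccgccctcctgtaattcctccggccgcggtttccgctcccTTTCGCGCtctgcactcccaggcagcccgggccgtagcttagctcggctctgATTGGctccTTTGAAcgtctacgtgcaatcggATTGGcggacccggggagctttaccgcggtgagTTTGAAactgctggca
Top2a: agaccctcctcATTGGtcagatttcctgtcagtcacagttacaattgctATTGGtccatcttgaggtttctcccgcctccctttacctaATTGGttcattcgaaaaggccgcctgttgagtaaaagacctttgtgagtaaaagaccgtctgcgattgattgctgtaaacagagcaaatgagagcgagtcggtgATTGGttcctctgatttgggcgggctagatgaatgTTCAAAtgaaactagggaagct
Mki67: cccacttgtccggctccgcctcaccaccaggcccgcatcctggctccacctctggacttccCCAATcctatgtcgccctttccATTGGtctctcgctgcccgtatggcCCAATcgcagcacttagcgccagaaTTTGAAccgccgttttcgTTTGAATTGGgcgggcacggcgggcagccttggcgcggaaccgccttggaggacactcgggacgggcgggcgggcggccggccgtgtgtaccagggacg

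E2F-type letters stood in 6 of 19 replication promoters (31.6%: Mcm2, Mcm5, Mcm6, Mcm7, Pola1 and Tyms) and in 2 of 18 mitotic ones (11.1%: Cdk1 and Stmn1), against 1.73% of 33469 promoters of the same length. CHR-type letters stood in 2 replication promoters (10.5%) and 8 mitotic ones (44.4%), against 16.2% of all. The CCAAT letters were in 8 replication promoters (42.1%) and 15 mitotic ones (83.3%), against 34% of all. Both together were in 0 replication and 8 mitotic promoters (Birc5, Ccnb2, Cdc20, Cdk1, Cks2, Mki67, Prc1 and Top2a), against 5.87% of all. A match describes these letters in this window only, and no binding was measured.

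Values are the deposited scores, on a log-type scale whose base is not stated in the sources used here, with array medians between -0.012 and 0.033. Differences are treated minus control in score units, with the standard error of a limma fit over all 45 arrays after the sign ±, and no fold is given. A gene counts as raised or lowered at a Benjamini-Hochberg adjusted p under 0.05 over 31042 probe sets. Of the 44 genes, 14 had a mean score under 0, which on these arrays is below the typical probe set, and levels are compared within a gene only. The markers fixed for hepatocytes, which define the labelled tissue, had list means from 3.53 to 4.57 over the control arrays. The ending of the array file name, whose meaning is not stated, is 11 on every 24 h array and mixed at 6 h. There ending 12 is on 3 myclobutanil and 3 triadimefon arrays and on no control, while 31 and 21 are each on 1 control. Ending and treatment thus run partly together at 6 h and cannot be fully told apart. At 14 days 1 myclobutanil array has ending 12 and all other arrays have 11.

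Myclobutanil raised almost the whole set at 24 h. Of the 44 genes 43 rose and 0 fell, against 3.92% of all 14217 genes raised and 6.86% lowered. The median difference was 0.37 in these genes and -0.01 in all genes. After quantile normalization 43 again rose, while the array as a whole turned to 8.24% raised and 6.03% lowered. Ccne2, a cyclin E that starts S phase, was the exception on the probe set chosen for it, at 0.03 ± 0.03 (adjusted p = 0.63 in limma) with a mean score under 0 in every group. Its other probe set, also with a mean score under 0, rose by 0.44 ± 0.05 (3.1e-08), so the exception rests on the choice of probe set. With the mean of each gene's probe sets 44 of 44 rose. On 32 of the 44 genes (19 replication, 13 mitotic) all 5 treated arrays lay above all 5 control arrays, which held for 2.88% of all genes.

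**Figure D1:**
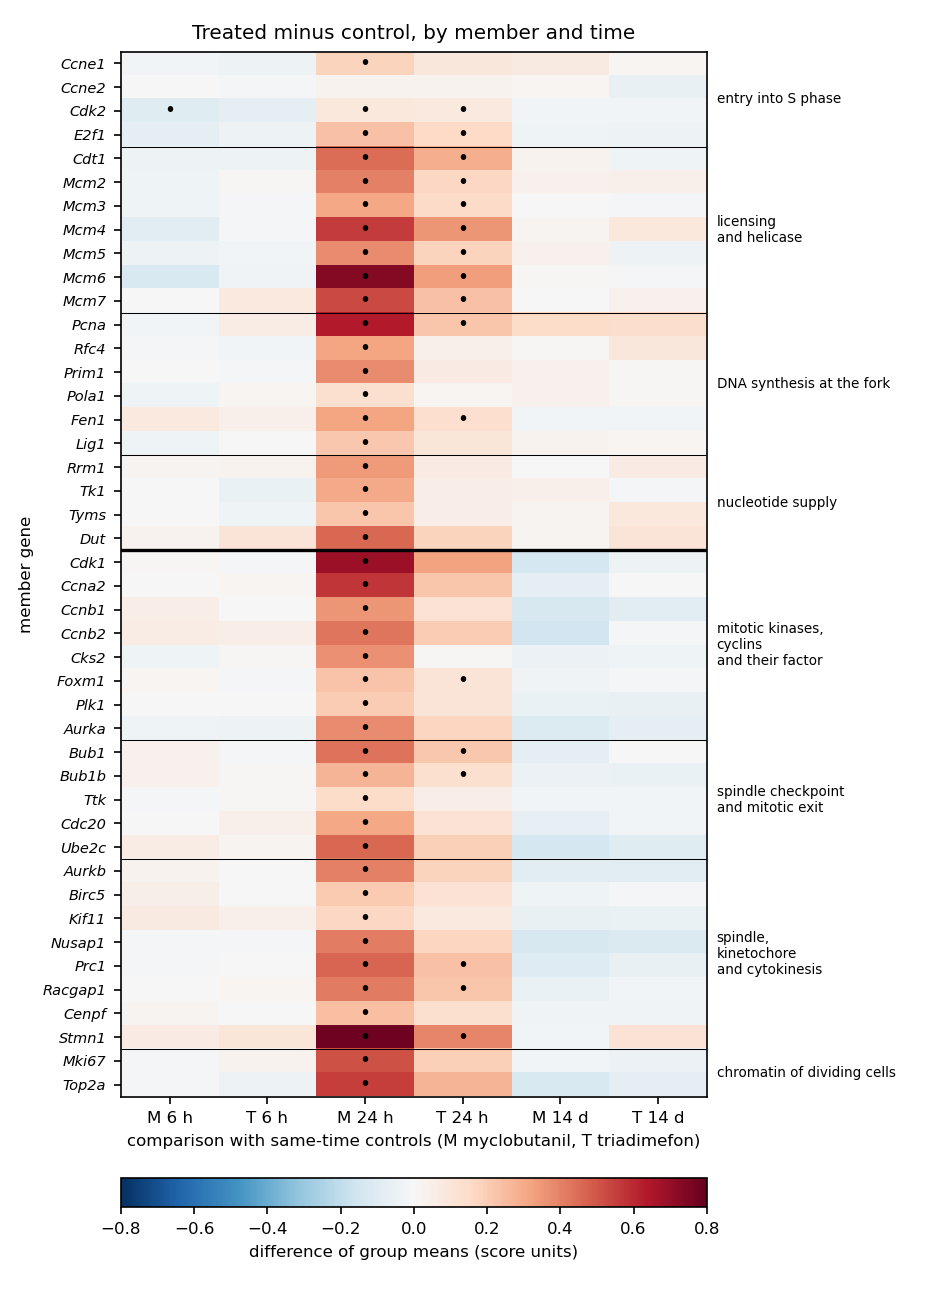
Differences between treated and same-time control arrays for the 44 genes (rows, grouped by role, replication above the thick line) in 6 comparisons, as colour in score units; dots mark an adjusted p under 0.05. The myclobutanil column at 24 h carries 43 dots and the triadimefon column 17, while the 6 h and 14 days columns carry 1 dot in all.

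Among genes for entry into S phase, 3 of 4 rose on their chosen probe sets with small differences, a median of 0.13. The cyclin Ccne1 scored 0.269, 0.244, 0.20, 0.149 and 0.287 on the myclobutanil arrays at 24 h against 0.074, 0.078, 0.014, 0.033 and 0.076 in controls. Every treated array was above every control, and the difference was 0.18 ± 0.03 (adjusted p = 0.00029, limma). The transcription factor E2f1 scored 0.277, 0.284, 0.211, 0.229 and 0.360 against 0.037, -0.030, 0.066, 0.061 and 0.061. Again the groups did not overlap, at 0.23 ± 0.04 (3.7e-05). Cdk2, the kinase partner of cyclin E, rose by 0.09 ± 0.02 (0.012), the smallest of the 43 changes.

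Licensing and helicase genes rose as a whole, 7 of 7 with a median of 0.44. Mcm6 scored 0.523, 0.701, 0.452, 0.488 and 0.781 with myclobutanil and -0.206, -0.132, -0.224, -0.179 and 0.005 in controls. The lowest treated array stood well clear of the highest control, and the difference of 0.74 ± 0.08 (adjusted p = 3.6e-08, limma) was the largest of the replication class. Mcm2, another subunit, scored 0.395, 0.521, 0.449, 0.500 and 0.628 against 0.106, 0.157, 0.046, 0.083 and 0.070. That is 0.41 ± 0.05 (7e-08), with no overlap. Mcm4 rose by 0.56 ± 0.07 (1.5e-06), Mcm7 by 0.53 ± 0.05 (2.2e-08) and the loader Cdt1 by 0.44 ± 0.05 (3e-08), and the remaining subunits Mcm3 and Mcm5 by 0.31 and 0.38. In all 7 genes the treated arrays lay above the controls without overlap.

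At the fork 6 of 6 genes rose (median 0.31). Pcna scored 1.97, 1.89, 1.82, 1.81 and 1.97 against 1.13, 1.39, 1.20, 1.16 and 1.42. The spread within the treated arrays was small beside the difference of 0.63 ± 0.07 (6.1e-08). The flap nuclease Fen1 and the clamp loader subunit Rfc4 rose by 0.31 each, the ligase Lig1 by 0.21, and the polymerase subunit Pola1 by 0.13. The primase Prim1, at 0.38 ± 0.10 (0.012), was the 1 fork gene whose groups overlapped. Nucleotide supply followed with 4 of 4: the dUTPase Dut at 0.46 ± 0.06 (2e-06), the reductase subunit Rrm1 at 0.34, the thymidine kinase Tk1 at 0.31 and the thymidylate synthase Tyms at 0.22.

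**Figure D2:**
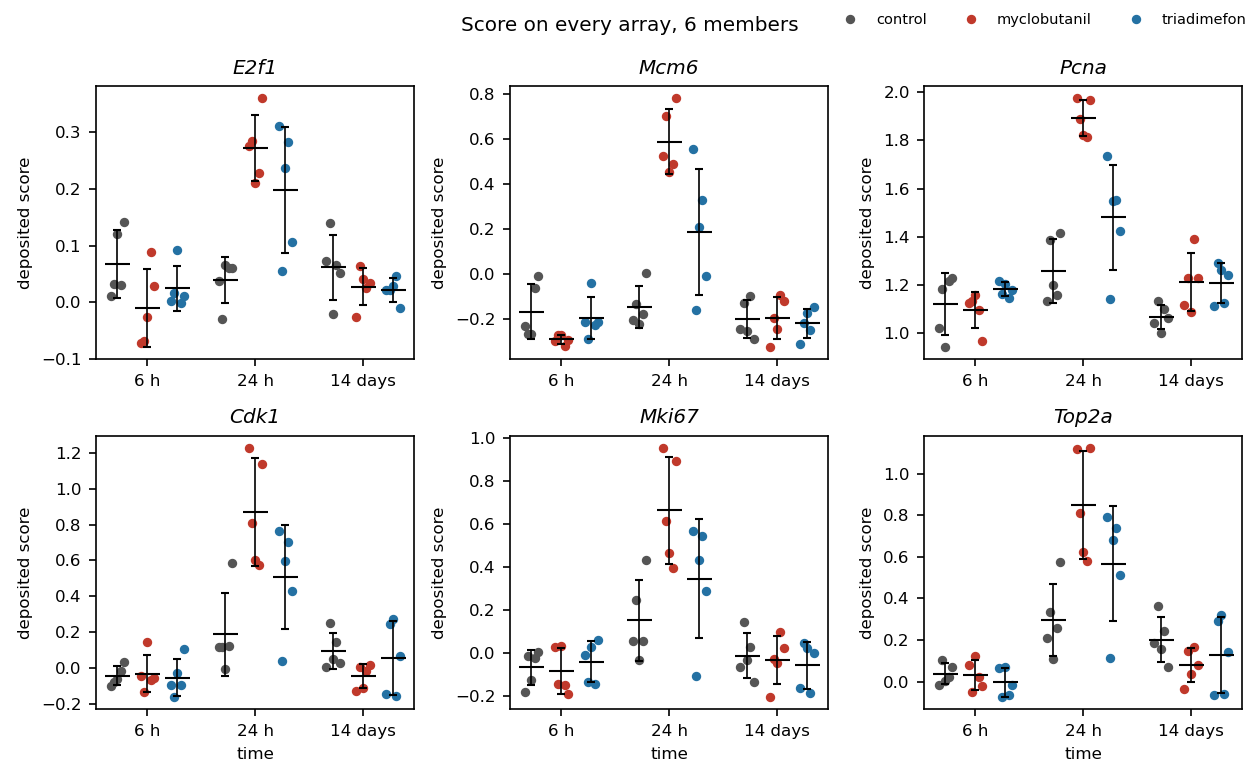
Deposited score of 6 genes on each of the 45 arrays (points) by time and treatment, with the group mean (bar) and SD (whiskers), n = 5 per group. The myclobutanil mean at 24 h is the highest of each panel, the triadimefon points at 24 h spread from the control level upwards, and the groups overlap at 6 h and 14 days, apart from Mcm6 at 6 h, where myclobutanil lies just below the controls.

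Mitotic genes rose in every role: 8 of 8 kinases, cyclins and their factor (median 0.37), 5 of 5 checkpoint and exit genes (0.31), 8 of 8 spindle and cytokinesis genes (0.41) and both chromatin genes (0.53). Cdk1 scored 1.23, 0.811, 0.600, 0.573 and 1.14 with myclobutanil against 0.115, 0.117, -0.006, 0.123 and 0.587 in controls. Control array 5 reached the level of the lowest treated array, so the groups overlapped at that 1 point, and the difference was 0.68 ± 0.11 (adjusted p = 6.2e-05, limma). Ccnb1, the cyclin B that partners Cdk1, scored 0.888, 0.508, 0.439, 0.426 and 0.811 against 0.205, 0.305, 0.103, 0.210 and 0.471. The rise was 0.36 ± 0.07 (0.0013), again overlapping control 5.

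Mki67, which coats mitotic chromosomes, scored 0.954, 0.617, 0.466, 0.397 and 0.892 against 0.057, 0.249, -0.033, 0.058 and 0.436. Top2a, which untangles sister chromatids, scored 1.12, 0.809, 0.623, 0.582 and 1.12 against 0.208, 0.333, 0.111, 0.256 and 0.575. Their differences were 0.51 ± 0.10 (adjusted p = 0.0005, limma) and 0.55 ± 0.10 (0.00019). For Top2a the lowest treated array stayed just above control 5, and for Mki67 it did not.

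The largest mitotic difference was that of Stmn1, a microtubule destabiliser, at 0.78 ± 0.13 (5.3e-05), and Ccna2, cyclin A, rose by 0.57 ± 0.10 (0.00018). In the checkpoint and exit role Ube2c, an enzyme that helps destroy cyclin B, and Bub1, a checkpoint kinase, rose by 0.46 and 0.44. Among spindle genes Prc1 and Racgap1, which organise the midzone, rose by 0.46 and 0.42, and the kinesin Kif11 by 0.17.

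The arrays within the myclobutanil group at 24 h differed more in mitotic than in replication genes, as did those of every other group but the 6 h controls. The median SD with myclobutanil was 0.204 in the mitotic class and 0.0881 in the replication class. It was 0.125 and 0.0647 in controls and 0.170 and 0.131 with triadimefon at 24 h. At 6 h it was 0.0657 and 0.0446 with myclobutanil and 0.0575 and 0.0439 with triadimefon. At 14 days it was 0.0720 and 0.0513 in controls, 0.0513 and 0.0433 with myclobutanil, and 0.104 and 0.0390 with triadimefon. In controls at 6 h the order was the other way, at 0.0466 and 0.0598. Arrays 1 and 5 were the 2 highest for 23 of 23 mitotic genes but for 7 of 21 replication genes, and array 4 was the lowest for 20 of the mitotic genes. Averaged over the class, the mitotic genes scored 0.713, 0.430, 0.331, 0.284 and 0.644 on the 5 treated arrays and 0.047, 0.109, -0.022, 0.037 and 0.277 on the controls. The replication genes scored 0.565, 0.572, 0.501, 0.489 and 0.648 against 0.166, 0.250, 0.183, 0.177 and 0.286. Replication means were thus close together and clear of the controls, whereas the lowest treated mitotic mean was level with control 5.

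**Figure D3:**
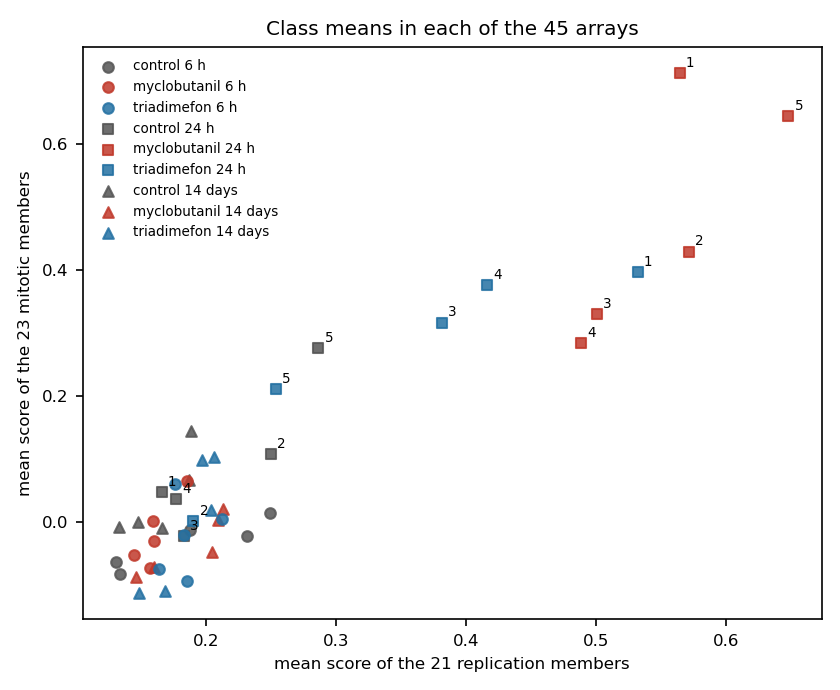
Mean score of the 21 replication genes (x axis) and the 23 mitotic genes (y axis) on each of the 45 arrays, coloured by treatment, with shape for time and replicate numbers printed at 24 h. The myclobutanil arrays at 24 h lie to the right between 0.489 and 0.648, arrays 1 and 5 highest on the y axis; triadimefon array 2 lies among the controls.

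Between the classes the median differences were 0.31 for replication and 0.40 for mitotic genes, a gap of 0.09 units that is described and not tested. The gap ran from 0.01 to 0.12 when any 1 array was left out. It turned to -0.01 when genes that belong to neither class alone were dropped (Ccna2, Mki67, Top2a and Stmn1 from the mitotic class and the entry genes from the other). No order of the classes is read from it.

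Triadimefon raised fewer of the genes at 24 h, among them all 7 licensing and helicase genes. Of 44 genes 17 rose and 0 fell, against 2.60% of all genes raised and 8.31% lowered (5.89% and 6.34% after quantile normalization, with 19 of the 44 raised). All 44 differences were above 0, with a median of 0.16 against -0.01 in all genes. The replication class gave 11 of 21: all 7 licensing and helicase genes, Cdk2, E2f1, Pcna and Fen1. The mitotic class gave 6 of 23: Stmn1, Prc1, Racgap1, Bub1, Bub1b and Foxm1. The class mean was 0.355 against 0.212 in controls for replication and 0.261 against 0.090 for mitotic genes. The replication class thus had more calls but not a larger rise in its mean. None of the 4 nucleotide supply genes passed, nor did either chromatin gene. The same 5 control arrays serve both compounds, so the 2 sets of differences are not independent.

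Mcm6 scored 0.557, -0.159, 0.208, 0.331 and -0.007 on the triadimefon arrays at 24 h. Array 2 was at the control level, array 5 at the top of the controls and the others above them, a rise of 0.33 ± 0.08 (adjusted p = 0.006, limma). E2f1 scored 0.310, 0.056, 0.238, 0.282 and 0.106, a rise of 0.16 ± 0.04 (0.005). Mcm2 scored 0.457, 0.124, 0.294, 0.333 and 0.078, a rise of 0.16 ± 0.05 (0.018).

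The largest replication difference was that of Mcm4, at 0.35 ± 0.07 (0.0018). Cdt1 scored 0.295, 0.010, 0.091, 0.069 and -0.082 against -0.236, -0.184, -0.210, -0.232 and -0.199. Cdt1, Mcm4 and Cdk2 were the 3 genes with no overlap, which held for 1.86% of all genes, and Cdt1 rose by 0.29 ± 0.05 (0.0001). Pcna scored 1.74, 1.14, 1.55, 1.55 and 1.42 and rose by 0.22 ± 0.07 (0.042), a call lost in 10 of 21 alternatives, with an adjusted p of up to 0.28. Ccne1 scored 0.276, -0.020, 0.205, 0.182 and 0.097, a difference of 0.09 ± 0.03 that did not pass (0.066).

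In the mitotic class Stmn1 rose by 0.39 ± 0.13 (adjusted p = 0.048, limma), Prc1 by 0.23 ± 0.07 (0.04) and Racgap1 by 0.22 ± 0.07 (0.035). Cdk1 scored 0.766, 0.039, 0.599, 0.702 and 0.432, a difference of 0.32 ± 0.11 (0.07). Mki67 scored 0.570, -0.107, 0.436, 0.548 and 0.289, or 0.19 ± 0.10 (0.24). Arrays 1 and 4 thus exceeded the highest control for each gene, array 3 did so for Cdk1 and fell just short for Mki67, array 2 lay near or below the lowest, and neither gene passed.

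Top2a scored 0.793, 0.112, 0.680, 0.741 and 0.511, a difference of 0.27 ± 0.10 (0.083). Ccnb1 scored 0.492, 0.067, 0.429, 0.530 and 0.344, a difference of 0.11 ± 0.07 (0.39). In both, array 2 was the lowest and array 5 the next.

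**Figure D4:**
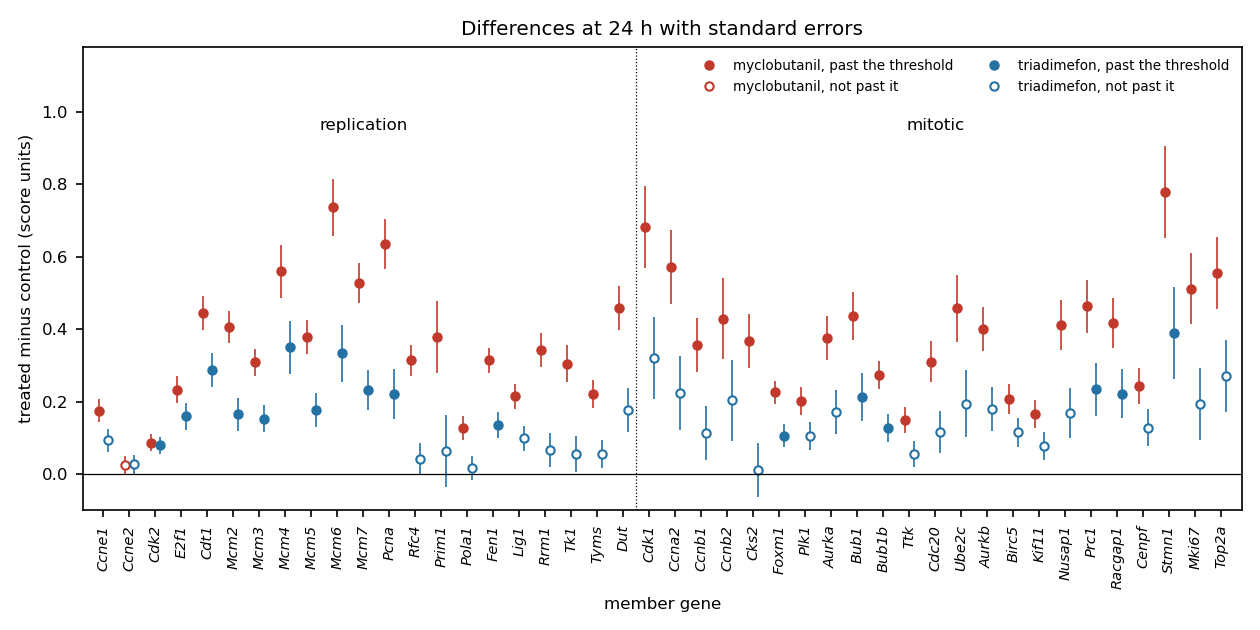
Treated minus control at 24 h for each of the 44 genes (score units) with standard errors, myclobutanil in red and triadimefon in blue; filled points passed an adjusted p of 0.05. Red lies above blue for 43 of 44 genes, and 7 of the 17 filled blue points are licensing and helicase genes.

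The triadimefon arrays were uneven over the whole set. Array 2 was the lowest of the 5 for 37 of 44 genes and array 1 the highest for 36. Array 1 lay above all controls for 42 genes, array 4 for 41, array 3 for 33, array 5 for 13 and array 2 for 5. The class means were 0.532, 0.190, 0.382, 0.416 and 0.254 for replication and 0.397, 0.002, 0.317, 0.377 and 0.211 for mitotic genes. Without array 2 the count of raised genes was 30, and without array 1 it was 5. It was 8 without control 3, 10 without control 1, 10 without triadimefon 3, and 11 without control 4 or triadimefon 4. Fitted on the 2 groups compared alone it was 1. The count for myclobutanil stayed at 42 or 43 with any array left out.

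Set directly against myclobutanil at 24 h, triadimefon gave lower scores in both classes, with more of the replication genes called. Of 44 genes 14 were lower and 0 higher, against 1.22% of all genes lower and 0.443% higher (4.06% and 1.65% after quantile normalization, with 20 of the 44 called). The doses differ, so this compares treatments and not compounds at 1 dose. The median difference, triadimefon minus myclobutanil, was -0.22, and 43 of 44 were below 0. The replication class gave 12 of 21: Mcm2, Mcm3, Mcm5, Mcm6, Mcm7, Pcna, Rfc4, Fen1 and all 4 nucleotide supply genes. The mitotic class gave 2 of 23, Cks2, a small Cdk-binding protein, and Bub1b, a checkpoint kinase.

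Pcna differed by -0.41 ± 0.07 (adjusted p = 0.002, limma), Mcm6 by -0.40 ± 0.08 (0.005) and Mcm7 by -0.30 ± 0.05 (0.0032). Cks2 differed by -0.36 ± 0.07 (0.0087) and Bub1b by -0.15 ± 0.04 (0.045). For Pcna, Rrm1, Tk1 and Dut all triadimefon arrays lay below all myclobutanil arrays, which held for 2.90% of all genes. The mitotic median was -0.22 and the replication median -0.20, while the median standard error was 0.068 for mitotic and 0.0452 for replication genes. Cdk1, at -0.36 ± 0.11 (0.11), and Mki67, at -0.32 ± 0.10 (0.11), did not pass. Cdt1 (-0.16 ± 0.05, 0.098) and E2f1 (-0.07 ± 0.04, 0.48) did not pass, nor did Mcm4 (-0.21 ± 0.07, 0.18). The count was 26 without myclobutanil array 4, 25 without triadimefon array 1 and 8 without triadimefon array 2, and 0 when only these groups were fitted.

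At 6 h the set was near the control level, with file-name endings that differ between treated and control arrays. With myclobutanil 0 genes rose and 1 fell, against 0.317% and 0.148% of all genes, and with triadimefon 0 changed, against 1.01% raised and 0.211% lowered. After quantile normalization the shares were 1.09% and 0.703%, and 2.5% and 1.29%. Unadjusted p-values under 0.05 were found for 3 and 1 of the 44. The share of all genes at that unadjusted threshold is not given here, so nothing is read from counts at it. The gene that fell was Cdk2, by 0.10 ± 0.02 (adjusted p = 0.03, limma). Controls at 6 h were themselves higher for Cdk2 than controls at 24 h, which stood 0.10 ± 0.02 lower (0.006), and at 14 days, 0.09 ± 0.02 lower (0.019). Those were the only calls of these genes among controls, against 2.55% raised and 0.788% lowered at 24 h against 6 h (3.07% and 2.8% after quantile normalization), and 1.02% and 2.89% at 14 days against 6 h (2.79% and 3.56%). Between 14 days and 24 h 0 of 44 differed, against 0.0422% and 0.288% (0.197% and 0.232%).

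The Cdk2 call at 6 h was lost in 7 of 10 repeats without 1 array and among arrays of ending 11. Between the compounds 0 of 44 differed at 6 h, against 0.253% higher and 0.0563% lower of all genes (0.774% and 0.317% after quantile normalization), with 0 at an unadjusted p under 0.05. Mcm6 scored -0.296, -0.274, -0.270, -0.321 and -0.293 with myclobutanil at 6 h and -0.230, -0.269, -0.265, -0.064 and -0.011 in controls. Cdk1 scored -0.047, -0.137, 0.143, -0.069 and -0.055 against -0.099, -0.080, -0.062, -0.016 and 0.032. For Mcm6 all 5 myclobutanil arrays lay just below all 5 controls, the 1 gene of the 44 without overlap, against 0.837% of all genes, and it was not called. For Cdk1 the groups overlapped.

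Mki67 scored -0.010, -0.131, 0.031, -0.142 and 0.062 with triadimefon, 0.030, -0.144, 0.036, -0.147 and -0.187 with myclobutanil and -0.179, -0.014, -0.122, -0.020 and 0.007 in controls at 6 h. E2f1 scored 0.003, 0.016, 0.093, -0.002 and 0.011 with triadimefon, -0.073, -0.069, -0.026, 0.088 and 0.028 with myclobutanil and 0.011, 0.031, 0.121, 0.031 and 0.142 in controls at 6 h. The 3 groups overlapped for both. Pcna ran from 0.942 to 1.23 in controls, 0.968 to 1.16 with myclobutanil and 1.15 to 1.22 with triadimefon. Top2a ran from -0.014 to 0.106 in controls, -0.052 to 0.122 with myclobutanil and -0.073 to 0.072 with triadimefon. Mcm2 ran from 0.051 to 0.227 in controls, 0.047 to 0.141 with myclobutanil and 0.089 to 0.165 with triadimefon. No group stood clear of the others for these genes.

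At 14 days 0 of 44 genes passed for either compound. The background was 1.12% raised and 0.0703% lowered for myclobutanil and 5.49% and 2.74% for triadimefon (after quantile normalization 1.02% and 0.556%, and 5.96% and 5.39%). At an unadjusted p under 0.05 there were 2 and 3 genes. No share of all genes at that unadjusted threshold is given for these counts or the next, and nothing is read from them. Between the compounds 0 differed, against 0.204% higher and 0.197% lower (0.598% and 0.528% after quantile normalization), with 1 at an unadjusted p under 0.05.

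The highest difference above 0 was that of Pcna, at 0.14 ± 0.07 for both myclobutanil (adjusted p = 0.37, limma) and triadimefon (0.21). Its scores were 1.12, 1.23, 1.09, 1.39 and 1.23 with myclobutanil, 1.11, 1.29, 1.26, 1.12 and 1.24 with triadimefon and 1.04, 1.13, 0.999, 1.10 and 1.06 in controls. With myclobutanil all 23 mitotic differences were below 0, with a median of -0.06, and with triadimefon 22 of 23, with a median of -0.04. None passed, and the 23 genes share arrays. Control array 2, the highest of its group for 21 of 23 mitotic genes, is in both comparisons.

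Mcm6 scored -0.324, -0.195, -0.244, -0.093 and -0.121 with myclobutanil, -0.314, -0.218, -0.175, -0.247 and -0.146 with triadimefon and -0.246, -0.128, -0.251, -0.097 and -0.287 in controls at 14 days. Cdk1 scored -0.127, 0.003, -0.113, -0.017 and 0.017 with myclobutanil, -0.147, 0.247, 0.273, -0.160 and 0.068 with triadimefon and 0.006, 0.250, 0.049, 0.143 and 0.029 in controls. Mki67 scored -0.201, -0.028, -0.046, 0.098 and 0.024 with myclobutanil, -0.160, 0.046, 0.023, -0.186 and 0.001 with triadimefon and -0.064, 0.147, -0.030, 0.029 and -0.132 in controls. All 3 groups overlapped for each of these genes, and none of the arrays reached the levels of myclobutanil at 24 h. Top2a ran from 0.068 to 0.361 in controls, -0.036 to 0.165 with myclobutanil and -0.064 to 0.318 with triadimefon. Mcm2 ran from -0.011 to 0.076 in controls, -0.003 to 0.148 with myclobutanil and 0.047 to 0.121 with triadimefon. E2f1 ran from -0.021 to 0.139 in controls, -0.026 to 0.063 with myclobutanil and -0.010 to 0.047 with triadimefon. The ranges overlapped again, with E2f1 highest on a control array. For Ccne1 all 5 myclobutanil arrays lay above all 5 controls, against 3.28% of all genes. It scored 0.053, 0.107, 0.042, 0.153 and 0.084 against 0.012, 0.034, 0.020, -0.004 and 0.009. For Ccnb2 and Aurka all 5 lay just below the controls, against 0.485% of all genes. None of these was called. With triadimefon 0 of 44 lay clear of the controls, against 6.62% above and 2.96% below. Between the compounds 1 lay above and 1 below, against 1.06% and 1.7%.

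The change of the myclobutanil effect between times was itself tested. Between 6 h and 24 h it grew for 34 of 44 genes (18 replication, 16 mitotic) and shrank for 0, against 1.51% and 0.971% of all genes (3.85% and 2.07% after quantile normalization, with 35 of the 44 called). Between 24 h and 14 days it shrank for 40 (17 and 23) and grew for 0, against 1.51% and 5.01% of all genes (3.07% and 2.05% after quantile normalization). All 40 were among the 43 raised at 24 h, an overlap nearly fixed since 43 of 44 were raised. The same 24 h arrays enter the call at 24 h and both changes of the effect. Mcm6 grew by 0.86 ± 0.11 (adjusted p = 3.5e-05, limma), Pcna by 0.66 ± 0.10 (0.00011), Mcm4 by 0.65 ± 0.10 (0.00026), Stmn1 by 0.72 ± 0.18 (0.025), Cdk1 by 0.67 ± 0.16 (0.016) and Ccna2 by 0.57 ± 0.14 (0.029). From 24 h to 14 days Cdk1 changed by -0.83 ± 0.16 (0.0019), Stmn1 by -0.80 ± 0.18 (0.0069), Mcm6 by -0.73 ± 0.11 (0.0002), Top2a by -0.68 ± 0.14 (0.0035), Mcm4 by -0.54 ± 0.10 (0.0018) and Mcm7 by -0.52 ± 0.08 (0.00015). At 6 h arrays differ in file-name ending: with the ending as a covariate 17 genes grew, and among arrays of ending 11 there were 14.

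The triadimefon effect grew between 6 h and 24 h for 4 genes, all of the replication class (Mcm4, Cdt1, E2f1 and Cdk2), against 0.647% of all genes, with 3.95% shrinking (1.89% and 3.12% after quantile normalization). Mcm4 grew by 0.36 ± 0.10 (adjusted p = 0.043, limma), Cdt1 by 0.33 ± 0.07 (0.0041) and E2f1 by 0.20 ± 0.05 (0.024). It shrank between 24 h and 14 days for 11 (7 replication, 4 mitotic), against 4.34% of all genes, with 11.3% growing (6.39% and 7.21% after quantile normalization). Among them were Mcm6 (-0.35 ± 0.11, 0.033), Cdt1 (-0.32 ± 0.07, 0.0017), Mcm5 (-0.22 ± 0.07, 0.026), Nusap1 (-0.29 ± 0.10, 0.048), Aurkb (-0.27 ± 0.09, 0.036) and Bub1b (-0.18 ± 0.05, 0.026). Leaving out 1 array moved these counts between 2 and 8 and between 2 and 22. The extremes were 2 without triadimefon 6 h array 1, control 24 h array 2 or triadimefon 24 h array 1 and 8 without triadimefon 24 h array 2 for the growth, and 2 and 22 without triadimefon 24 h arrays 1 and 2 for the decline. Without triadimefon 24 h array 5 the first was 7.

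For the decline 8 further arrays moved the count: it was 3 without control 14 days array 2, 4 without control 24 h array 2, 5 without control 24 h array 3 or control 14 days array 4, 6 without triadimefon 24 h array 4 or triadimefon 14 days array 1, 7 without triadimefon 14 days array 4, and 17 without control 24 h array 5.

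Other genes of the same processes moved alike with myclobutanil at 24 h, where 3.92% of all genes rose and 6.86% fell. These lists were chosen with earlier results of these data known and were read on the same arrays, so they give no independent support. Of 37 further replication genes 22 rose and 1 fell (median 0.15), led by the clamp loader subunit Rfc2 (0.44 ± 0.04, adjusted p = 4.8e-09, limma) and Timeless (0.35 ± 0.06, 8.9e-05), which steadies the fork. Of 54 further mitotic genes 45 rose and 0 fell (median 0.21), led by the kinetochore gene Spc24 (0.63 ± 0.09, 1.6e-05) and the cytokinesis factor Ect2 (0.59 ± 0.10, 9e-05). With triadimefon 6 of 37 and 10 of 54 rose and 0 fell, led by Rfc2 (0.28 ± 0.04, 4.7e-05) and the kinetochore gene Zwint (0.35 ± 0.06, 0.00021). The triadimefon shares over all genes were 2.60% raised and 8.31% lowered. Against myclobutanil, triadimefon was lower for 8 of 37 and 11 of 54, beside 1.22% of all genes. Zwint alone among the mitotic list was raised at 14 days with both compounds, at 0.29 ± 0.06 (0.01) with myclobutanil and 0.41 ± 0.06 (2.4e-05) with triadimefon. Over all genes 1.12% and 5.49% were raised at 14 days, and no lasting rise of the list is read from 1 gene.

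Among 38 brakes and drivers of the cycle, myclobutanil at 24 h raised 13 and lowered 4 and triadimefon raised 5 and lowered 3. Over all genes 3.92% were raised and 6.86% lowered with myclobutanil, and 2.60% and 8.31% with triadimefon. The lowered counts were near these shares, so no general fall of the list is read from them. Btg1, an anti-proliferative gene, fell by 0.46 ± 0.12 (0.01) and by 0.39 ± 0.12 (0.031), and Rbl1, a pocket protein that binds E2Fs, rose by 0.44 ± 0.06 (7.8e-07) and by 0.22 ± 0.06 (0.0097). Ccnd1, the cyclin D that responds to growth signals, had its highest mean of the 24 h groups with triadimefon. At 24 h it scored 1.43, 1.36, 1.09, 1.41 and 1.58 with triadimefon, 1.01, 1.10, 0.889, 1.16 and 1.21 with myclobutanil and 0.775, 0.997, 0.719, 0.943 and 0.769 in controls. Triadimefon arrays all lay above the controls, including array 2, and rose by 0.53 ± 0.09 (9e-05), to a mean of 1.37 beside 1.39 in the 6 h controls, while the myclobutanil difference of 0.23 ± 0.09 did not pass (0.085). The difference between the compounds, 0.30 ± 0.09, did not pass (0.076).

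Cdkn1a, the Cdk inhibitor p21, scored 0.814, 0.784, 0.805, 0.714 and 0.754 with myclobutanil and 0.664, 0.514, 0.705, 1.05 and 1.13 in controls at 24 h, and 0.656, 0.422, 0.772, 0.711 and 1.11 with triadimefon. The groups overlapped, at -0.04 ± 0.10 (adjusted p = 0.88, limma) and -0.08 ± 0.10 (0.71). At 14 days it scored 0.389, 0.576, 0.815, 0.152 and 0.370 with triadimefon and 0.999, 0.870, 0.875, 0.997 and 0.71 with myclobutanil. The 14-day controls scored 0.719, 0.758, 0.643, 0.819 and 0.848, and their range overlapped that of each compound. Triadimefon was lower than myclobutanil by this test (adjusted p = 0.043), with 1 array inside the myclobutanil range, and the call was lost in 13 of 21 alternatives.

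Markers of other liver cells were read beside these results. With myclobutanil at 24 h 10 of 12 Kupffer cell and macrophage markers fell and 0 rose (median -0.33), and the list mean ran from 1.04 to 1.25 against 1.28 to 1.81 in controls. With triadimefon 0 of 12 changed, and the list mean ran from 1.30 to 1.61. Their part in the rise of the 43 genes was not tested. Lymphocyte markers (0 raised, 1 lowered of 13), neutrophil (0 and 2 of 7), erythroid (0 and 0 of 10), endothelial (0 and 2 of 9), stellate (0 and 1 of 11), bile duct (0 and 0 of 7) and hepatocyte markers (0 and 0 of 13) gave no raised gene with myclobutanil at 24 h. Of all genes 3.92% rose and 6.86% fell in that comparison. With triadimefon 1 of 9 endothelial markers rose, against 2.60% of all genes raised and 8.31% lowered.

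A further 17 probe sets represent 13 of the 44 genes, 11 of them with a mean score under 0. Of these 13 rose and 0 fell with myclobutanil at 24 h, 1 rose with triadimefon, and 3 were lower with triadimefon than with myclobutanil. Over all genes, at 1 probe set each, 3.92% rose and 6.86% fell with myclobutanil. With triadimefon 2.60% rose, and 1.22% were lower than with myclobutanil. Nothing is read from the single rise with triadimefon. The second Ccne2 probe set was in each of these counts, raised by triadimefon by 0.20 ± 0.05 (adjusted p = 0.006, limma) and lower with triadimefon than with myclobutanil, at -0.25 ± 0.05 (0.0047). At 6 h and 14 days 0 changed.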

How the data were processed

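The values are deposited scores, 1 for each probe set on each array, made by the authors on a log-type scale. The base, background correction and normalization are not given in the sources used here. The 57 control probe sets were left out, 31042 were tested, and genes were named through the array's annotation (20826 probe sets with 1 gene, 436 with several, 9780 with none). Groups came from the sample titles. limma 3.58.1 in R 4.3.3 fitted 1 mean per group over all 45 arrays with Benjamini-Hochberg adjustment, and was tested on simulated data. No array pair was identical. Precision is limited by having 5 arrays per group.

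The members and gene lists were chosen with earlier results of these data known. Named genes were a fixed panel (Ccne1, E2f1, Mcm2, Mcm6, Pcna, Rrm2, Cdk1, Ccnb1, Mki67, Top2a, Ccnd1, Cdkn1a), the 3 changed genes of each class with the largest difference per comparison, exceptions, and up to 4 per further list, of which part is printed; other members named by role were picked after their values were seen. Alternatives covered scaling, a filter on low values, the samples in the fit, variance moderation, array weights, file-name endings, the probe set per gene, the threshold, the replicate block and each array left out. No pairing of the arrays by replicate number was seen, in a check that cannot exclude one.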

Additional observations from a re-analysis of the deposited data

Results flagged for a closer look

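Of 117 groups of 5 values checked for 1 array far from the others, 3 were set apart, and chance alone sets apart about 1 in 20. E2f1 on triadimefon array 3 at 6 h scored 0.093, with the others from -0.002 to 0.016. Cdk1 on control array 5 at 24 h scored 0.587, with the others from -0.006 to 0.123, and this array is in each 24 h comparison with controls. Ccnd1 on triadimefon array 2 at 6 h scored 0.958, with the others from 1.30 to 1.43.

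Effects that differed between times, each tested as a difference of differences in limma, came up for the genes of the fixed panel. The myclobutanil effect was larger at 24 h than at 6 h for Ccne1 (0.20 ± 0.05, adjusted p = 0.012), E2f1 (0.31 ± 0.05, 0.00059), Mcm2 (0.44 ± 0.06, 6.6e-05), Mcm6 (0.86 ± 0.11, 3.5e-05), Pcna (0.66 ± 0.10, 0.00011), Cdk1 (0.67 ± 0.16, 0.016), Mki67 (0.53 ± 0.14, 0.036) and Top2a (0.56 ± 0.14, 0.025). The call of Mki67 was lost in 15 of 31 alternatives and that of Top2a in 7 of 31. It was smaller at 14 days than at 24 h for E2f1 (-0.27 ± 0.05, 0.0022), Mcm2 (-0.37 ± 0.06, 0.00074), Mcm6 (-0.73 ± 0.11, 0.0002), Pcna (-0.49 ± 0.10, 0.0028), Cdk1 (-0.83 ± 0.16, 0.0019), Ccnb1 (-0.48 ± 0.10, 0.0053), Mki67 (-0.53 ± 0.14, 0.021) and Top2a (-0.68 ± 0.14, 0.0035).

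The triadimefon effect was larger at 24 h than at 6 h for E2f1 (0.20 ± 0.05, 0.024) and Ccnd1 (0.62 ± 0.12, 0.0028). It was smaller at 14 days than at 24 h for E2f1 (-0.20 ± 0.05, 0.011), Mcm6 (-0.35 ± 0.11, 0.033) and Ccnd1 (-0.64 ± 0.12, 0.00092).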

How the results depend on the processing

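No result reversed under the alternatives run, other than the untested gap between the classes. The myclobutanil count at 24 h was 43 after quantile normalization and 29 of the 29 genes above the median level. Counts that moved by over 1.5 times were as follows. Fitting only the groups compared gave 1 raised gene for triadimefon at 24 h, 0 between the compounds at 24 h, 0 for Cdk2 with myclobutanil at 6 h, 0 for the growth and 3 for the decline of the triadimefon effect, and 0 for both calls among controls. An adjusted p under 0.01 gave 6 for triadimefon at 24 h, 9 between the compounds, 18 for the growth of the myclobutanil effect, 2 and 1 for the growth and decline of the triadimefon effect, 0 for Cdk2 at 6 h and 0 for controls at 14 days against 6 h. Only arrays of ending 11 gave 10 for triadimefon at 24 h, 14 for the growth of the myclobutanil effect, 0 and 6 for growth and decline with triadimefon, and 0 for Cdk2 at 6 h and both control calls. The ending as a covariate gave 17 for the growth of the myclobutanil effect and 0 for Cdk2 at 6 h and both control calls. Array weights gave 8 for the growth with triadimefon and 0 for Cdk2 at 6 h, which was also 0 with trend and robust moderation and with the mean of a gene's probe sets. A shift to the same median gave 6 for the decline with triadimefon, and quantile normalization 0 for controls at 14 days against 6 h. The cause was not tested; the smaller fits have fewer arrays.

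Leaving out 1 array gave 42 to 43 for myclobutanil and 5 to 30 for triadimefon at 24 h, 8 to 26 between the compounds, 26 to 36 and 34 to 40 for the growth and decline of the myclobutanil effect, 2 to 8 and 2 to 22 for triadimefon, 0 to 1 for each compound at 6 h (1 with triadimefon without control 5) and 0 to 1 for controls at 14 days against 6 h (0 without control 6 h array 2 or control array 3 at 14 days). The 14-day counts against controls and between the compounds stayed at 0. The gap between the classes ran from 0.01 to 0.12 for myclobutanil and 0.01 to 0.07 for triadimefon, and with other class lists it was -0.01 and -0.02. Further single calls that were often lost were Mcm6 in the decline with triadimefon (9 of 30 alternatives), E2f1 in the growth (7 of 31) and Mcm2 with triadimefon at 24 h (4 of 21).

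Same-numbered arrays correlated from -0.42 to 0.40, and in no comparison were all 5 pairs over 0.1. From 1 to 3 of 5 correlated best with their own number. No pairing by number was seen, though such correlations cannot exclude one. With the replicate block the counts were 43 and 16 at 24 h, 15 between the compounds, 33 and 39 for growth and decline with myclobutanil and 3 and 10 with triadimefon, and no count moved by over 1.5 times.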
